A study of Homo sapiens with 12 samples.

Results

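Transcripts of the aminoacyl-tRNA synthetases were followed in MIAPaCa2 cells, a human pancreatic ductal adenocarcinoma line, and in a population of these cells that had become resistant to sodium oxamate, an inhibitor of lactate dehydrogenase. The members were the rows of the gene count table that carry the symbols of 20 cytosolic and 16 mitochondrial enzymes, 36 of the 26475 symbols in the table, and all 36 were among the 14582 genes expressed highly enough to be tested. RNA was sequenced from parental cells given vehicle, parental cells given oxamate, resistant cells given vehicle and resistant cells given oxamate, with 3 libraries in each of the 4 groups. Both cell populations were cultured in the same medium with serum, and dose and duration of the oxamate treatment are not given in the sample labels. The resistant cells were 1 polyclonal population that survived prolonged culture in oxamate, so that resistance and any other property of that population cannot be told apart. Separate cultures are not stated for the replicates, and the p-values therefore measure the spread between these libraries only.

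Aminoacyl-tRNA synthetases attach amino acids to their tRNAs and so supply the charged tRNAs that ribosomes use. Human cells hold a cytosolic set and a nuclear-encoded mitochondrial set of these enzymes. GARS and KARS, for glycine and lysine, each encode both forms and were counted with the cytosolic set, and EPRS charges both glutamate and proline in the cytosol. Uncharged tRNA activates the kinase EIF2AK4 (GCN2), which raises translation of the transcription factor ATF4. ATF4 is known to raise transcription of genes for amino acid synthesis and of many cytosolic synthetases through C/EBP-ATF response elements in their promoters.

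The core of this response element, TGATGNAA or its reverse complement TTNCATCA, was searched on both strands of RefSeq promoter windows (GRCh38.p14, 250 bases before to 50 bases after a start site). Windows were present for 16 of the 20 cytosolic and 14 of the 16 mitochondrial members. The core was found for 7 of the 16 cytosolic members (43.8%) and for 1 of the 14 mitochondrial members (7.14%), beside 4.46% of all 27305 genes with a window and 3.62% of all windows. With C at the open position it was found for 6 cytosolic members, for 0 mitochondrial members and for 1.08% of all genes. A match is a description of the sequence and not evidence of binding. Stretches of 6 of these cytosolic members and of the mitochondrial one are shown on the gene's strand with the matched letters in capitals, since the expression of their genes is followed through the rest of the text.
CARS (chr11:3057407-3057436, minus strand): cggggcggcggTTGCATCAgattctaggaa
GARS (chr7:30594834-30594863, plus strand): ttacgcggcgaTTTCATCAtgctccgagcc
IARS (chr9:92293692-92293721, minus strand): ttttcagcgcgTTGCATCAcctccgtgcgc
MARS (chr12:57488053-57488082, plus strand): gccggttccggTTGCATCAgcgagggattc
NARS (chr18:57621804-57621833, minus strand): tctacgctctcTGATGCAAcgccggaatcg
TARS (chr5:33440956-33440985, plus strand): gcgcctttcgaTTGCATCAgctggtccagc
YARS2 (chr12:32756076-32756105, minus strand): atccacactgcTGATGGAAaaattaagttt
Counted from the start site, the first matched base of the stretches shown lay at positions between -33 and 15 for CARS, GARS, IARS, MARS, NARS and TARS, and at -197 for YARS2. The GARS match was in the second of its windows.

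The promoter of PARS2 was also read over the 250 bases before its start site, since PARS2 was the least abundant member per length and had the largest change. The sequence (chr1:54764524-54764773, minus strand) holds no match to the core.
PARS2: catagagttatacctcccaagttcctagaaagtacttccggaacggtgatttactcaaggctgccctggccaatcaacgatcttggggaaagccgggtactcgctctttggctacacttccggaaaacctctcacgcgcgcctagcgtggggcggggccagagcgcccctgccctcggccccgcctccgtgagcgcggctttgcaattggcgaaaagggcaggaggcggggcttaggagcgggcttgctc

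Library totals ran from 46698729 to 114222169 expected counts, with 59811522 or more in each parental and 55239600 or fewer in each resistant library, and the members took between 0.413% and 0.539% of them. The libraries carried the keratins KRT8 and KRT18 and VIM at 671 CPM or more (CPM, the count scaled to a common library size), whereas the leukocyte marker PTPRC and the endothelial marker PECAM1 reached at most 3 and 11 counts, the acinar gene CPA1 at most 1 count, the fibroblast gene DCN at most 2 counts and COL1A1 at most 2.03 CPM. PRSS1, INS and CDKN2A, a gene deleted in this line, had 0 counts. LDHA, the enzyme that oxamate inhibits, was higher with oxamate in parental cells (1546 to 1701 CPM against 1059 to 1086 CPM) and in resistant cells (1198 to 1223 CPM against 944 to 970 CPM). The nuclear-retained RNA MALAT1 stood at 596 CPM in parental oxamate replicate 3 against 281 and 289 CPM in the other 2 libraries of that group, and at 597 CPM in resistant vehicle replicate 3 against 244 and 273 CPM. It lay between 577 and 742 CPM in the resistant oxamate libraries and between 183 and 199 CPM in the parental vehicle libraries. Its part in the results was not tested, but each count of calls was repeated without the 2 libraries.

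Levels of different genes were compared as CPM per kilobase of the principal transcript. In vehicle-treated parental cells the cytosolic members ranged from 21.4 (CARS) to 156 CPM per kb (AARS) with a median of 65.3, and the mitochondrial members from 1.94 (PARS2) to 78.2 CPM per kb (IARS2) with a median of 11.2. The sets overlapped through IARS2, the mitochondrial isoleucine enzyme, which ranked 8 among the 36, and through CARS, which lay below CARS2 and YARS2. After AARS followed KARS at 142, WARS at 133 and GARS at 118 CPM per kb. Several neighbours in this order lay within their replicate spread of each other, such as CARS2 and YARS2 at 27.4 CPM per kb each and FARS2 and HARS2 at 11.9 CPM per kb each.

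**Figure D1:**
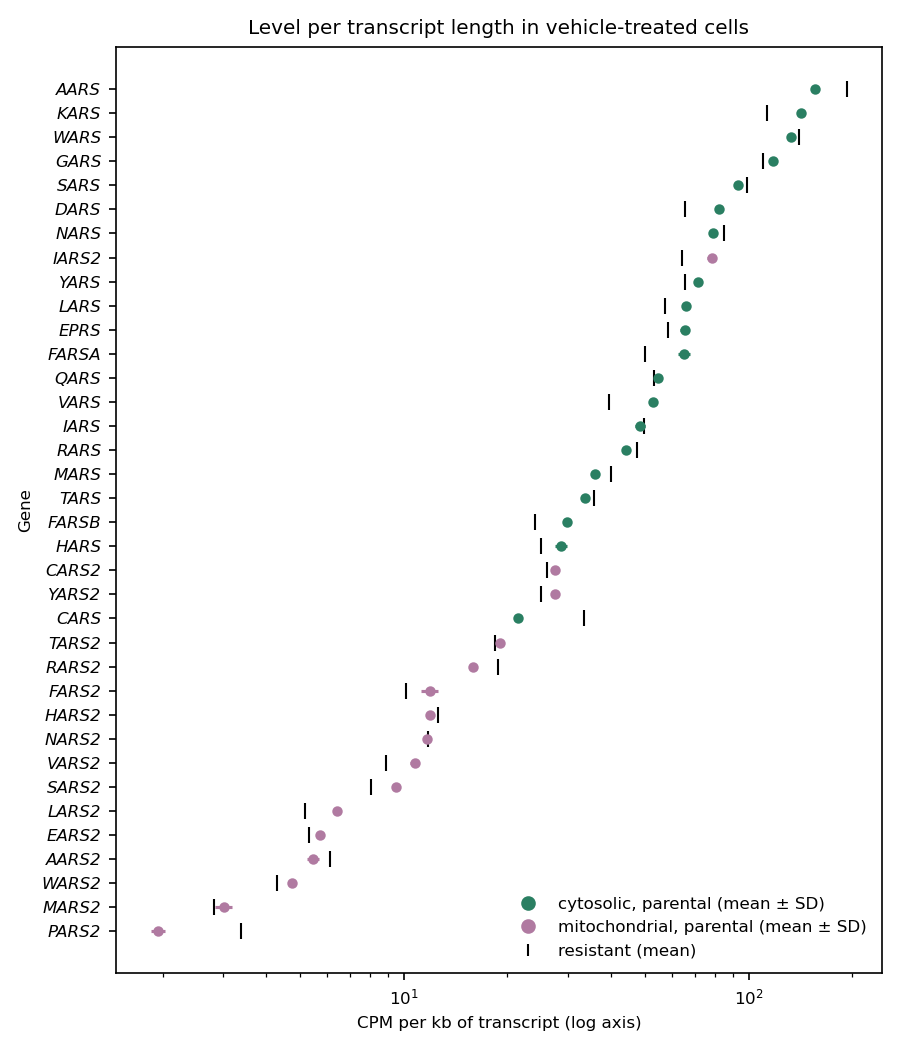
Level of each synthetase transcript in vehicle-treated cells, as CPM per kb of transcript on a log axis. Points give the parental mean with its SD over 3 libraries, and vertical ticks the resistant mean. Cytosolic members lie above 21 CPM per kb and all mitochondrial members except IARS2 lie below 28 CPM per kb in parental cells.

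Summed over each set, the cytosolic transcripts fell with oxamate in both cell populations while the mitochondrial sum moved by little. The cytosolic sum was 4395, 4357 and 4421 CPM in the parental vehicle libraries and 4022, 4006 and 3872 CPM in the parental oxamate libraries, a difference of -9.66% between the means. In resistant cells it was 4313, 4306 and 4268 CPM with vehicle and 3651, 3654 and 3643 CPM with oxamate, a difference of -15.0%. The oxamate libraries lay below the vehicle libraries without overlap in both populations. The mitochondrial sum differed by 1.00% in parental cells (713 ± 6.81 against 720 ± 18.2 CPM, SD, n = 3) and by 0.287% in resistant cells (644 ± 6.06 against 646 ± 9.91 CPM), within the spread of the libraries. The ratio of the cytosolic to the mitochondrial sum was 6.16 ± 0.0143 with vehicle and 5.51 ± 0.0340 with oxamate in parental cells, and 6.67 ± 0.0270 and 5.65 ± 0.0788 in resistant cells (SD, n = 3). IARS2 alone held 279 of the 713 CPM of the parental mitochondrial sum, so that the sum weights that gene heavily. With oxamate IARS2 rose to 312 CPM in parental cells, by more than the whole sum did. The other mitochondrial transcripts together therefore fell there, and 12 of the 16 members had a log2 fold change below 0 (median -0.11). The sum and the ratio in parental cells thus do not describe most mitochondrial members.

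**Figure D2:**
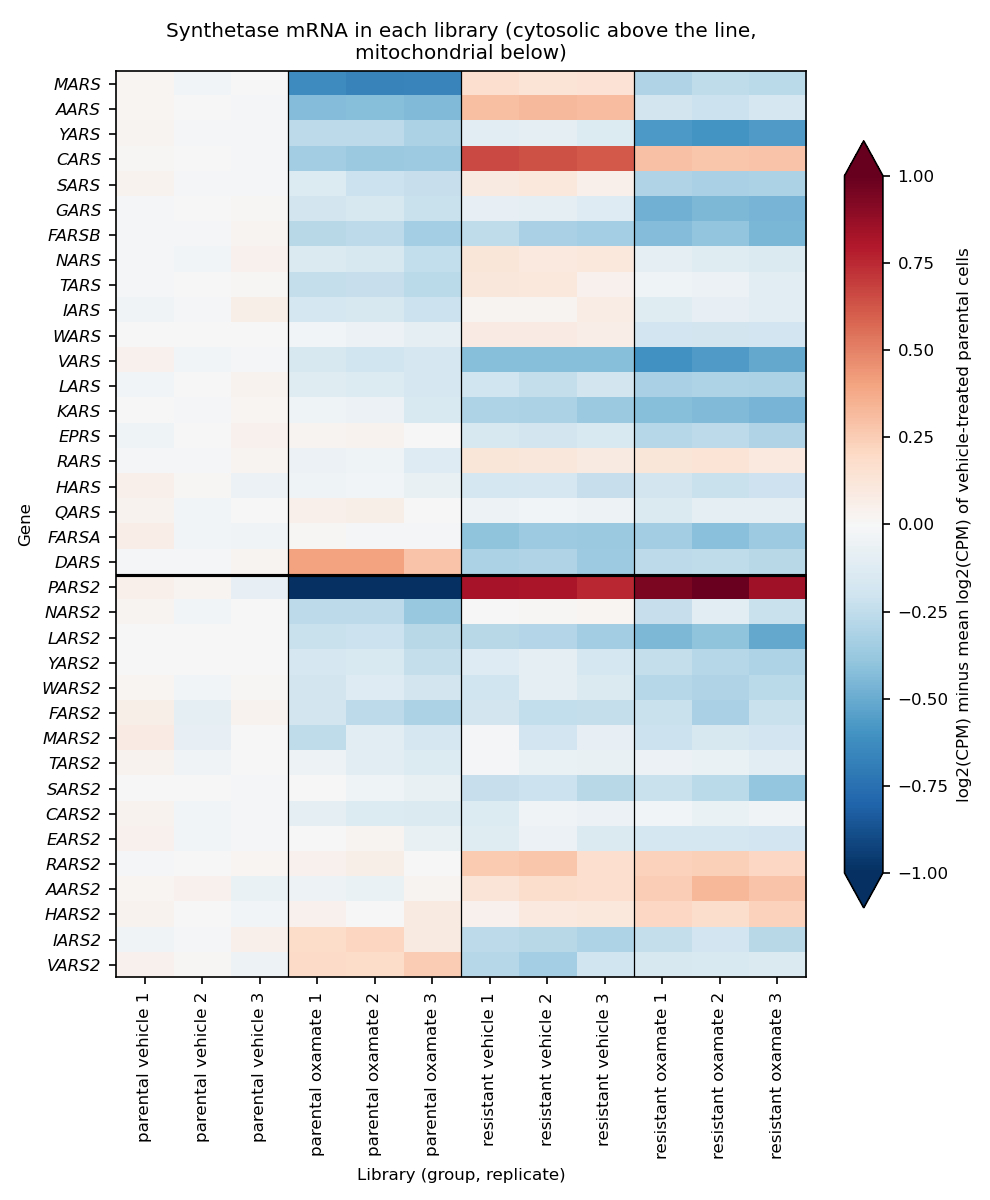
Log2 CPM of each of the 36 members (rows) in each of the 12 libraries (columns), minus the mean log2 CPM of the vehicle-treated parental libraries, with colours ending at -1 and 1. Most cytosolic rows are lower in both oxamate groups than in the vehicle group of the same cells, and PARS2 changes most among the mitochondrial rows.

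The first comparison asked how the members responded to oxamate in parental cells. The methionine enzyme MARS, the alanine enzyme AARS and the cysteine enzyme CARS fell most clearly among the cytosolic members, the aspartate enzyme DARS rose, and the mitochondrial proline enzyme PARS2 fell 2.45-fold. Genes were called at a Benjamini-Hochberg adjusted p under 0.05 over all 14582 genes in edgeR's quasi-likelihood test, which gives every adjusted p and standard error below, and fold changes are log2 values. Of the 20 cytosolic members 15 were lower, 1 was higher and 4 were not called, with a median of -0.18, and of the 16 mitochondrial members 9 were lower, 2 were higher and 5 were not called, with a median of -0.11. Among all genes tested 30.4% were lower and 28.3% higher, and their median was 0.003. At the threshold of the study, an unadjusted p under 0.05 and a change over 1.5-fold, which 9.88% of all genes passed, 2 members passed, MARS and PARS2.

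MARS (chr12:57475445-57517569, plus strand, GENCODE 29 on GRCh38) stood at 106, 103 and 105 CPM in the parental vehicle libraries and at 67.3, 65.8 and 66.0 CPM with oxamate. The groups were far apart, and the change was -0.65 (SE 0.024, adjusted p = 1.73e-11). Its transcript overlaps that of DDIT3, a stress-induced transcription factor gene on the opposite strand, over 68 exon bases, and use of strand in counting is not stated in the sources used here. DDIT3 changed the other way, from 50.3 to 55.4 CPM (log2 fold change 0.14, adjusted p = 0.0253).

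AARS (chr16:70252295-70289543, minus strand) stood at 549, 540 and 534 CPM with vehicle and at 401, 403 and 398 CPM with oxamate. It fell by 0.43 on the log2 scale (SE 0.022, adjusted p = 3.56e-10), and the groups did not overlap. CARS (chr11:3000922-3057613, minus strand) stood at 59.6, 59.2 and 58.5 CPM with vehicle and at 46.4, 45.7 and 46.0 CPM with oxamate, a fall of 0.36 (SE 0.024, adjusted p = 6.23e-09). These 3 genes are among the 7 whose promoter windows hold the response element core.

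DARS (chr2:135906677-135986100, minus strand), an enzyme of the multi-tRNA synthetase complex, was the single cytosolic member called higher. It stood at 192, 191 and 197 CPM with vehicle and at 255, 256 and 237 CPM with oxamate (log2 fold change 0.36, SE 0.030, adjusted p = 6.22e-08). Every oxamate library lay above every vehicle library, and replicate 3 was the lowest of the 3. FARSA, HARS, QARS and EPRS were not called, with log2 fold changes between -0.05 and 0.04.

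PARS2 (chr1:54756898-54764514, minus strand) stood at 4.71, 4.64 and 4.31 CPM in the parental vehicle libraries and at 1.75, 1.98 and 1.85 CPM with oxamate. This was the largest change of any member (-1.30, SE 0.076, adjusted p = 1.40e-09), in the transcript that is the lowest per length. NARS2, the mitochondrial asparagine enzyme, stood at 30.1, 28.9 and 29.4 CPM with vehicle and at 24.6, 24.5 and 22.6 CPM with oxamate (-0.30, SE 0.041, adjusted p = 1.04e-05). The 2 mitochondrial members called higher were VARS2 (0.21) and IARS2 (0.16), for valine and isoleucine.

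Calls close to the threshold rested on single libraries. WARS, KARS and RARS were not called without parental oxamate replicate 3 (adjusted p = 0.122, 0.134 and 0.136), which left 12 cytosolic members lower, and the same count was reached without both libraries rich in MALAT1. KARS and RARS also lost their calls without vehicle replicate 3, WARS without vehicle replicate 2, vehicle replicate 3 or oxamate replicate 2, MARS2 without vehicle or oxamate replicate 1 and TARS2 without oxamate replicate 3, with adjusted p between 0.0514 and 0.136 over all these cases, whereas HARS was called lower without vehicle replicate 3 (adjusted p = 0.0309).

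**Figure D3:**
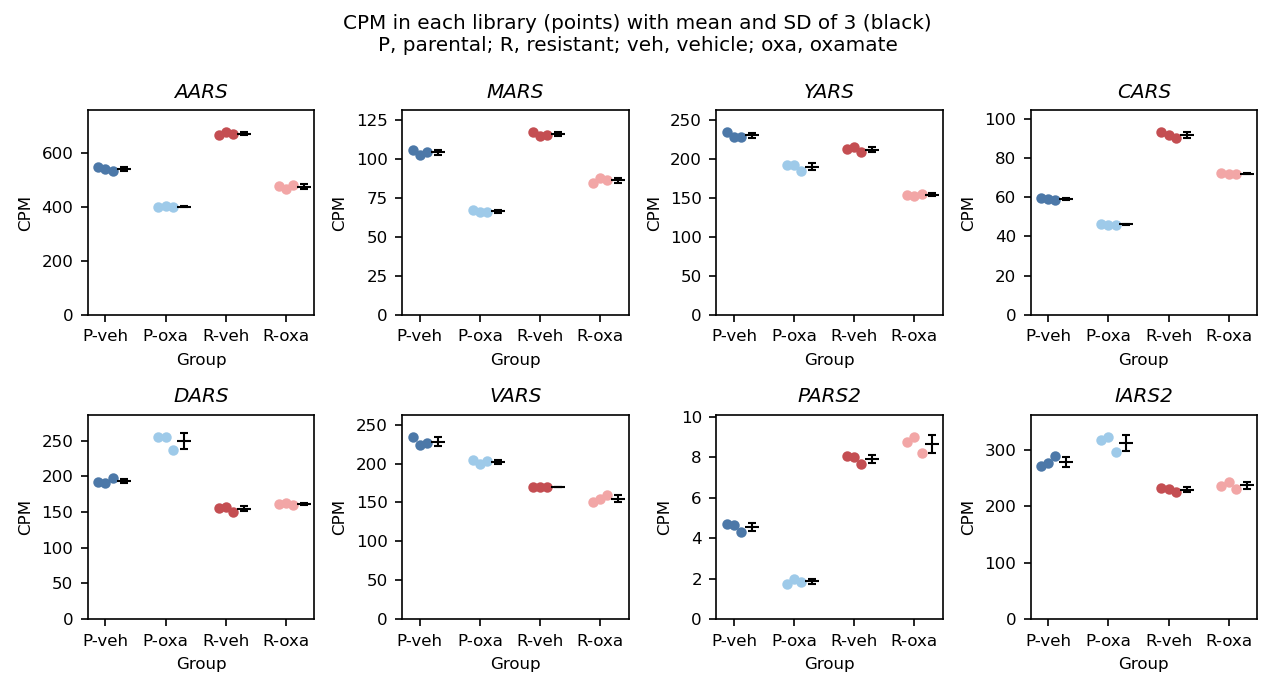
CPM of 8 members in each of the 12 libraries, with the mean and SD of the 3 libraries of a group in black, and each axis starting at 0. AARS, MARS, YARS and CARS are lower with oxamate in both populations, DARS is higher with oxamate in parental cells, and PARS2 stands at 1.75 to 1.98 CPM in oxamate-treated parental cells and at 7.67 CPM or more in resistant cells.

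The second comparison asked how resistant cells responded to oxamate. Again 15 cytosolic members were lower, 0 were higher and 5 were not called, with a median of -0.14, led by AARS, the tyrosine enzyme YARS and MARS. Far fewer genes responded here, since 12.5% of all genes tested were lower and 9.01% higher, with a median of -2e-05. Of the mitochondrial members 4 were lower (NARS2, LARS2, YARS2 and WARS2), 3 were higher (AARS2, VARS2 and HARS2) and 9 were not called, with a median of -0.03. No member passed the threshold of the study, which 2.5% of all genes passed.

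AARS stood at 667, 677 and 672 CPM in the resistant vehicle libraries and at 477, 466 and 482 CPM with oxamate (-0.50, SE 0.022, adjusted p = 7.33e-10). YARS (chr1:32775237-32818153, minus strand) stood at 213, 215 and 209 CPM with vehicle and at 154, 152 and 156 CPM with oxamate (-0.46, SE 0.025, adjusted p = 9.20e-09). MARS stood at 117, 115 and 115 CPM with vehicle and at 84.7, 87.6 and 86.3 CPM with oxamate (-0.42, SE 0.024, adjusted p = 1.63e-08). In none of these 3 did the groups overlap, and the change was below 1.5-fold in each.

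PARS2 stood at 8.04, 8.00 and 7.67 CPM in the resistant vehicle libraries and at 8.75, 9.02 and 8.19 CPM with oxamate, and was not called (0.13, SE 0.062, adjusted p = 0.146). DARS stood at 156, 158 and 150 CPM with vehicle and at 162, 162 and 160 CPM with oxamate (0.06, adjusted p = 0.164). PARS2, which fell most, and DARS, the cytosolic member that rose, in parental cells thus had no called response in resistant cells. NARS2 stood at 29.6, 29.8 and 29.8 CPM with vehicle and at 25.1, 27.4 and 25.2 CPM with oxamate (-0.20, SE 0.042, adjusted p = 0.00402), and YARS2 fell from 53.1, 54.6 and 51.5 CPM to 49.3, 47.8 and 47.0 CPM (-0.14, SE 0.031, adjusted p = 0.00507).

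The mitochondrial count was sensitive to single libraries. It was 2 without resistant oxamate replicate 3, and 4 without resistant vehicle replicate 1 or 2 or resistant oxamate replicate 1 or 2, against 7 with all libraries. The calls of AARS2, VARS2, HARS2, WARS2 and LARS2 were lost in 1 to 5 fits that left out 1 library, among them resistant vehicle replicate 3 for AARS2 and WARS2, with adjusted p up to 0.169. Among the cytosolic members FARSB lost its call without resistant vehicle replicate 1 or oxamate replicate 3, and KARS without vehicle replicate 1, vehicle replicate 2 or oxamate replicate 3 (adjusted p = 0.0561 to 0.0699).

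**Figure D4:**
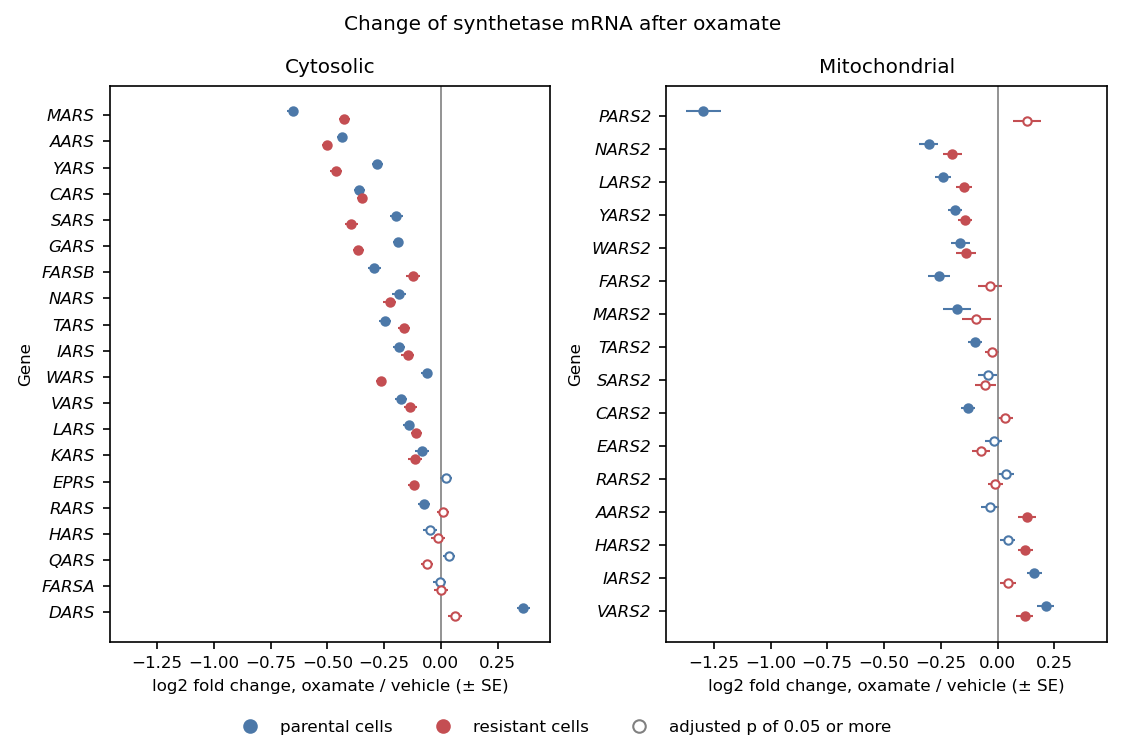
Log2 fold change with oxamate against vehicle (horizontal axis, with SE) for each cytosolic (left) and mitochondrial (right) member, in parental cells (blue) and resistant cells (red). Open points have an adjusted p of 0.05 or more. Cytosolic points lie mostly left of 0 in both populations, DARS lies right of 0 in parental cells, and PARS2 lies at -1.30 in parental cells and at 0.13 in resistant cells.

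The oxamate comparisons of the 2 populations share no library, so that their calls could be set side by side. Lower in both were 14 of the 20 cytosolic members (70%), namely AARS, CARS, FARSB, GARS, IARS, KARS, LARS, MARS, NARS, SARS, TARS, VARS, WARS and YARS, and 4 of the 16 mitochondrial members (25%), against 5.62% of all genes tested. VARS2 was higher in both. For 10 of the 13 amino acids with 1 cytosolic gene and 1 mitochondrial gene for that amino acid alone, the cytosolic transcript changed more towards lower levels than its mitochondrial counterpart in parental cells, and in 11 of 13 in resistant cells.

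A set of 12 cytosolic members known as amino acid response genes of ATF4 (AARS, CARS, EPRS, GARS, IARS, LARS, MARS, NARS, SARS, TARS, WARS and YARS) was listed from general knowledge. The list was written with earlier results of these data known, so that its split from the other members is no independent test. In parental cells 11 of the 12 were lower (median -0.19), EPRS being the exception, and in resistant cells all 12 were lower (median -0.31). Beside these and the following counts, 30.4% of all genes tested were lower and 28.3% higher in parental cells. In resistant cells the shares were 12.5% and 9.01%. Of the other 8 cytosolic members 4 were lower and 1 was higher in parental cells (median -0.06), and 3 were lower in resistant cells (median -0.04). The 7 cytosolic members with the core in a promoter window are all among these 12 genes, so that they are no separate set. All 7 were lower in both populations, with medians of -0.25 and -0.35. Of the 9 with a window but no match 5 were lower in each, with medians of -0.06 and -0.11. YARS2, the mitochondrial member with a match, was also lower in both. Divided by structure, 8 of 9 class I and 7 of 10 class II cytosolic enzymes were lower in parental cells, and 7 of 9 and 7 of 10 in resistant cells. Of the 8 members that sit in the multi-tRNA synthetase complex 5 were lower in each population, beside 10 of the 12 cytosolic members outside it.

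Genes around the synthetases were counted from lists written with the members. Of the 3 complex scaffolds, AIMP2 and EEF1E1 were lower in both populations and AIMP1 was not called. AIMP2 stood at 24.4, 23.2 and 24.3 CPM with vehicle and at 16.2, 16.1 and 15.4 CPM with oxamate in parental cells (-0.59, adjusted p = 5.33e-09). Of 14 other genes of tRNA charging and export, which include the export factor XPOT, 7 were lower and 0 higher in parental cells and 3 were lower and 0 higher in resistant cells, beside 30.4% and 12.5% of all genes lower. Of 14 genes of uncharged tRNA sensing and the amino acid response, 10 were lower and 3 higher in parental cells and 4 were lower and 1 higher in resistant cells. The 3 higher in parental cells were PPP1R15A (0.36), ATF3 (0.31) and DDIT3 (0.14). The 1 higher in resistant cells was CHAC1 (0.19), which was lower in parental cells (-1.18).

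ASNS, the asparagine synthetase and a known ATF4 target, had the smallest p of this last list in both populations. It stood at 71.6, 71.7 and 72.9 CPM with vehicle and at 49.2, 48.9 and 46.6 CPM with oxamate in parental cells (-0.58, adjusted p = 1.76e-10), and at 80.3, 80.2 and 82.4 CPM and 52.0, 51.1 and 50.3 CPM in resistant cells (-0.66, adjusted p = 4.79e-10). CEBPG, a partner of ATF4 on the response element, fell by 0.44 and 0.41 (adjusted p = 1.97e-09 and 5.02e-08). In resistant cells TRIB3 had a smaller p than CEBPG and fell by 0.58 (adjusted p = 2.54e-08). The ATF4 transcript itself was lower in parental cells (-0.28, adjusted p = 7.40e-07) and was not called in resistant cells (-0.08, adjusted p = 0.0529).

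Resistant cells were then set against parental cells, once with vehicle and once with oxamate, to ask how the populations differed. CARS and PARS2 were over 1.5-fold higher in resistant cells in both, and DARS was over 1.5-fold lower with oxamate. With vehicle 8 cytosolic members were higher, 10 were lower and 2 were not called (median -0.07), and 4 mitochondrial members were higher, 9 were lower and 3 were not called (median -0.10), where 38.4% of all genes were higher and 37.3% lower (median 0.03). With oxamate 6 cytosolic members were higher, 13 were lower and 1 was not called (median -0.14), and 6 mitochondrial members were higher, 7 were lower and 3 were not called (median -0.005), where 40.6% of all genes were higher and 39.7% lower (median 0.01). Most genes of any kind passed in these comparisons. At the threshold of the study, which 23.4% of all genes passed with vehicle and 34.3% with oxamate, 2 members passed with vehicle (CARS and PARS2) and 3 with oxamate (CARS, DARS and PARS2).

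CARS stood at 93.2, 91.6 and 90.2 CPM in the resistant vehicle libraries against 59.6, 59.2 and 58.5 CPM in the parental ones (0.63, SE 0.023, adjusted p = 1.36e-12), and at 72.5, 71.6 and 72.0 CPM against 46.4, 45.7 and 46.0 CPM with oxamate (0.65, SE 0.025, adjusted p = 7.92e-13). The lowest resistant library with oxamate lay above the highest parental library with vehicle. AARS, at the levels already given, was higher in resistant cells with vehicle (0.31, SE 0.022, adjusted p = 2.75e-09) and with oxamate (0.25, SE 0.022, adjusted p = 3.28e-08). MARS was higher by 0.15 with vehicle (SE 0.024, adjusted p = 3.05e-05) and by 0.38 with oxamate (SE 0.025, adjusted p = 6.65e-10).

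VARS, the cytosolic valine enzyme, was lower in resistant cells, with 170, 170 and 170 CPM against 235, 224 and 226 CPM under vehicle (-0.43, SE 0.027, adjusted p = 7.26e-10) and 150, 154 and 160 CPM against 204, 199 and 204 CPM under oxamate (-0.39). DARS was lower by 0.33 under vehicle (adjusted p = 8.63e-08) and by 0.63 under oxamate (SE 0.031, adjusted p = 1.68e-11). The parental and resistant libraries of both genes were separated without overlap.

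PARS2 showed the largest difference of any member between the populations. At the levels already given it was higher in resistant cells by 0.79 under vehicle (SE 0.063, adjusted p = 1.09e-08) and by 2.22 under oxamate (SE 0.074, adjusted p = 1.73e-13), a 4.64-fold difference. LARS2, the mitochondrial leucine enzyme, was lower under vehicle with 25.04, 24.8 and 23.9 CPM against 30.3, 30.4 and 30.3 CPM (-0.30, SE 0.035, adjusted p = 8.52e-07). IARS2 was lower under oxamate with 237, 243 and 230 CPM against 316, 323 and 296 CPM (-0.40, SE 0.034, adjusted p = 1.74e-08).

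The 2 comparisons of populations share no library, and their calls were set side by side. Higher in both were AARS, CARS, MARS, RARS and TARS of the cytosolic and AARS2, HARS2, PARS2 and RARS2 of the mitochondrial members, and lower in both were 10 cytosolic and 7 mitochondrial members, where 32.0% of all genes tested were higher in both and 32.2% lower in both. The serine enzyme SARS and the tryptophan enzyme WARS were higher with vehicle and lower with oxamate. CARS2 was lower with vehicle and higher with oxamate. But with library size alone SARS and WARS were above 0 with oxamate and CARS2 with vehicle. With upper-quartile factors SARS and WARS were not called with oxamate (adjusted p = 0.257 and 0.108), and CARS2 was not called with vehicle (adjusted p = 0.978). Of the 12 ATF4 response members 7 were higher and 4 lower with vehicle, and 5 were higher and 6 lower with oxamate, whereas of the other 8 cytosolic members 1 was higher in each comparison and 6 and 7 were lower. The 7 members with the core in a promoter window are all among the 12, and 5 of them were higher and 1 was lower in each comparison. Beside these counts, 38.4% of all genes tested were higher and 37.3% lower with vehicle, and 40.6% and 39.7% with oxamate.

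The balance of higher and lower members between the populations depended on how libraries were scaled. Scaling by library size alone, in place of edgeR's TMM factors, moved the median of all genes by 0.22 under vehicle and by 0.32 under oxamate. The cytosolic split of higher to lower then became 12 to 5 and 14 to 1, and the mitochondrial split 9 to 1 and 13 to 1. With upper-quartile factors the mitochondrial split was 4 to 5 and 7 to 4. The cytosolic calls moved the same way under these factors. With vehicle GARS and YARS were no longer called lower and IARS was called higher. With oxamate FARSB, SARS and WARS were no longer called lower and NARS was called higher. With library size alone the cytosolic medians were 0.15 and 0.19 and the mitochondrial medians 0.12 and 0.32, beside medians of all genes of 0.24 and 0.34. A change of scaling moves all genes of a comparison by nearly the same amount. The order of these medians against all genes could therefore hardly change, and it is no further test. CARS, AARS, MARS and PARS2 stayed higher and VARS, DARS, LARS2 and IARS2 stayed lower in the comparisons for which their values were given, under each scaling tried, although VARS was no longer called under oxamate with library size alone. In both comparisons library size alone changed the calls of EPRS, GARS, HARS, LARS, QARS, YARS, EARS2, WARS2 and YARS2 and moved them from below to above 0. MARS2, whose call changed only with oxamate, moved from -0.01 to 0.31 there.

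Single libraries decided weaker calls here too. Under vehicle SARS, CARS2, EARS2 and HARS2 lost their calls in 2 to 4 fits that left out 1 library, with adjusted p between 0.052 and 0.193, and IARS gained one without parental vehicle replicate 3. Under oxamate IARS, CARS2, NARS2, WARS2 and YARS2 lost theirs in 2 to 4 such fits (adjusted p = 0.0522 to 0.126), and NARS gained one without parental oxamate replicate 1, parental oxamate replicate 2 or resistant oxamate replicate 3. For SARS these libraries were parental vehicle replicates 2 and 3 and resistant vehicle replicates 1 and 2. For CARS2 they were replicate 1 of both vehicle groups, and under oxamate parental replicates 2 and 3 and resistant replicates 1 and 3. For EARS2 they were parental vehicle replicate 1 and resistant vehicle replicates 1 and 3, and for HARS2 replicates 2 and 3 of both vehicle groups. For IARS and NARS2 they were parental oxamate replicate 3 and resistant oxamate replicate 2, for WARS2 replicate 2 of both oxamate groups, and for YARS2 parental oxamate replicates 1 and 2 and resistant oxamate replicate 3.

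**Figure D5:**
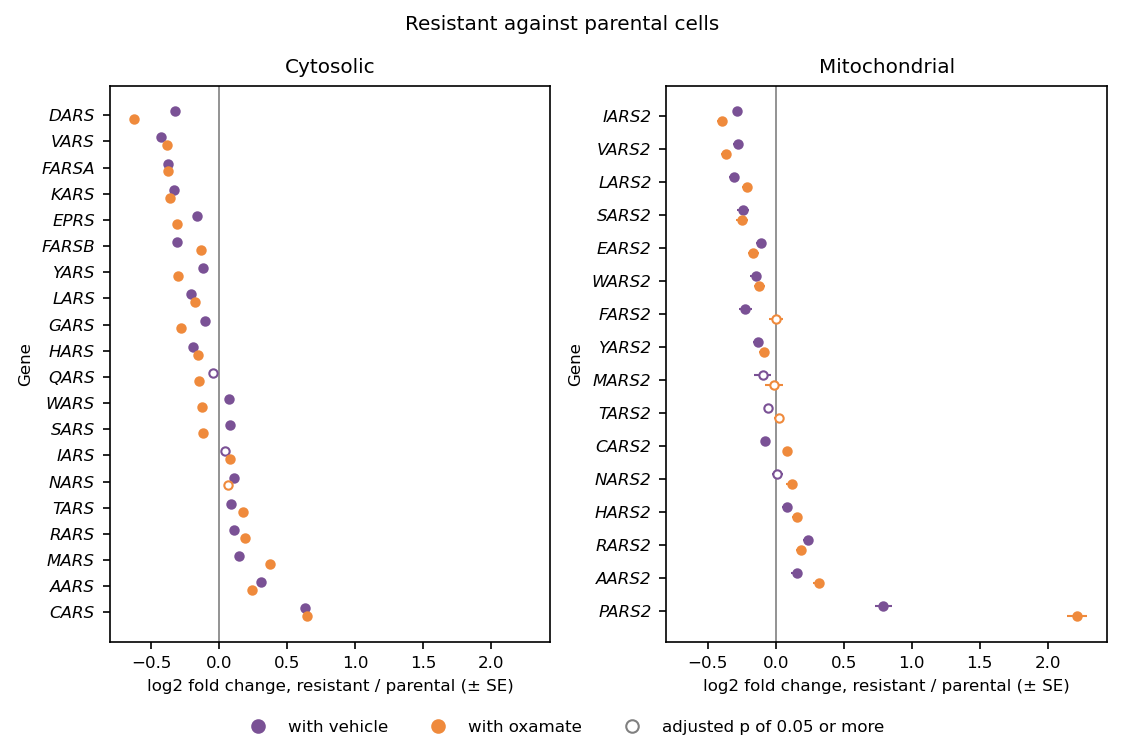
Log2 fold change of resistant against parental cells (horizontal axis, with SE) for each cytosolic (left) and mitochondrial (right) member, with vehicle (purple) and with oxamate (orange), under TMM scaling. Open points have an adjusted p of 0.05 or more. CARS and PARS2 lie farthest to the right of 0, at 0.63 and 0.79 with vehicle, and DARS lies farthest to the left, at -0.63 with oxamate.

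A further contrast of the fit, the log2 response of resistant cells minus that of parental cells, tested whether the oxamate response differed between the populations. It was called for 9 of the 20 cytosolic members, with 2 above and 7 below 0, and for 4 of the 16 mitochondrial members, all above 0, beside 22.7% of all genes above and 21.4% below 0. The largest difference was that of PARS2 (1.43, SE 0.098, adjusted p = 2.84e-08), the single member at the threshold of the study, which 8.48% of all genes passed. DARS differed by -0.30 (SE 0.043, adjusted p = 4.21e-05), its rise being larger in parental cells, and MARS by 0.23 (SE 0.034, adjusted p = 6.62e-05), its fall being larger in parental cells. WARS stood at 410, 410 and 413 CPM and at 403, 395 and 383 CPM in parental cells, and at 436, 434 and 430 CPM and at 361, 362 and 360 CPM in resistant cells, with vehicle and oxamate respectively. Its fall was larger in resistant cells (-0.20, SE 0.032, adjusted p = 0.000101), and YARS, GARS, SARS and EPRS differed in the same direction.

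CARS2, the mitochondrial cysteine enzyme, stood at 52.9, 50.5 and 51.2 CPM with vehicle and at 48.1, 46.8 and 46.7 CPM with oxamate in parental cells, and at 46.9, 50.2 and 49.5 CPM and at 50.6, 49.2 and 50.3 CPM in resistant cells. The difference of its responses was 0.16 (SE 0.044, adjusted p = 0.00683). Of the 7 members with the core in a promoter window, AARS, CARS, IARS, NARS and TARS had no called difference between their responses, with values between -0.07 and 0.09. The other 2, MARS (0.23) and GARS (-0.17), were called in opposite directions, beside 22.7% of all genes called above and 21.4% below 0. With library size alone CARS, IARS and TARS were called above 0. Under library size alone, which moved the median of all genes by 0.10, 10 cytosolic members were called above and 4 below 0, against 2 and 7, and with upper-quartile factors 4 above and 6 below. AARS2 lost its call without replicate 1 or 2 of either parental group, resistant vehicle replicate 1 or resistant oxamate replicate 2 or 3 (adjusted p = 0.0522 to 0.0843), and QARS without parental vehicle replicate 2 or 3, parental oxamate replicate 1 or 2, resistant vehicle replicate 1 or 2 or resistant oxamate replicate 1 (adjusted p = 0.0571 to 0.108). IARS2 gained a call without replicate 3 of either parental group, resistant vehicle replicate 3 or resistant oxamate replicate 2 (adjusted p = 0.00592 to 0.0494), and TARS without resistant oxamate replicate 3 (adjusted p = 0.0344).

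Several members share exon sequence with a neighbouring gene, so that their counts are uncertain where reads could be assigned to either. On the opposite strand HARS and HARS2 share 402 bases, YARS shares 396 with S100PBP, EARS2 370 with UBFD1, SARS2 349 with MRPS12, WARS 272 with WDR25 and AARS2 235 with TMEM151B. SARS2 also shares 67.4% of its exon bases with an annotated gene on its own strand. HARS2 shares 152 exon bases (5.36%) with ZMAT2, likewise on its own strand.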

How the data were processed

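The authors enriched mRNA, mapped reads with Bowtie2 2.1.0 and derived expected counts for each gene by RSEM 1.2.15 on hg38 (the versions and build from the submitters' processing notes), and they deposited these expected counts for 12 libraries without normalization. Use of strand is not given in the sources used here. Of the 36 members 8 had values that were not whole numbers. Rounded counts of all 12 libraries were fitted by edgeR 4.0.16 in R 4.3.3 as 4 group means (filterByExpr defaults, TMM factors, glmQLFit and glmQLFTest), and adjusted p-values covered all 14582 genes tested. CPM values are TMM-scaled. Totals ran from 46698729 to 114222169, and a floor of 3 counts lay at or below 0.0581 CPM. Floors cover counting error only. The pipeline was tested on simulated data with known changes.

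The members and lists were chosen with earlier results of these data known. Values in every library were given for the 3 cytosolic and 2 mitochondrial members with the smallest p in each comparison and for MARS, which the study names. Other members were given by counts and ranges, or singly where a value set them apart, and of each context list up to 2 genes with the smallest p per comparison. ATF4, DDIT3, MALAT1, the amino acid response genes named as higher with oxamate, and CEBPG in resistant cells lie outside this rule. Positions and lengths are from GENCODE 29, promoters from RefSeq, where 35 of 39 windows had their downstream bases in a transcript of the gene. The position of 1 cytosolic match is not reported here.

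The alternatives were the threshold of the study, RLE and upper-quartile factors, library size alone, testing every gene with no low-count filter, requiring a mean count of 25, DESeq2 1.42.0, limma-voom (limma 3.58.1), a replicate block, only the samples compared, each library left out in turn and, added after the data had been seen, leaving out both libraries rich in MALAT1.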

Additional observations from a re-analysis of the deposited data

Results flagged for a closer look

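The response to oxamate differed between resistant and parental cells, by the tested contrast in edgeR's quasi-likelihood test, for 13 of the 36 members, where 22.7% of all genes tested differed upwards and 21.4% downwards. The members were thus not called more often than other genes. PARS2 differed by 1.43 (log2 response of resistant minus that of parental cells, adjusted p = 2.84e-08). MARS differed by 0.23 (adjusted p = 6.62e-05), FARS2 by 0.22 (adjusted p = 0.0169), FARSB by 0.17 (adjusted p = 0.00389), CARS2 by 0.16 (adjusted p = 0.00683) and AARS2 by 0.16 (adjusted p = 0.0291). DARS differed by -0.30 (adjusted p = 4.21e-05), WARS by -0.20 (adjusted p = 0.000101), SARS by -0.20 (adjusted p = 0.000788), YARS by -0.18 (adjusted p = 0.000507), GARS by -0.17 (adjusted p = 0.000593), EPRS by -0.14 (adjusted p = 0.00446) and QARS by -0.10 (adjusted p = 0.0404). FARS2 was not called without both libraries rich in MALAT1 (adjusted p = 0.0648). QARS was not called with RLE factors (0.0577), with upper-quartile factors (0.0562), with library size alone (0.889, at a difference of 0.006), without a filter on low counts (0.0626) or by DESeq2 (0.0503), AARS2 was not called by DESeq2 (0.0636), and EPRS and GARS were not called with library size alone (0.434 and 0.0534), each value being an adjusted p. Both QARS and AARS2 also lost their calls in several fits that left out 1 library.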

How the results depend on the processing

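No count of members called changed by more than 1.5 times and no member lost its call or changed direction, in the comparison for which it was named by p, in any of 441 values from alternative fits, with these exceptions. At the threshold of the study, the counts of cytosolic and mitochondrial members were 1 and 1 for oxamate in parental cells, 0 and 0 in resistant cells, 1 and 1 between the populations with vehicle, 2 and 1 with oxamate, and 0 and 1 for the difference of responses, because that threshold requires a larger change. With library size alone the difference of responses was called for 14 cytosolic members, against 9, and for 9 mitochondrial members, against 4. For mitochondrial members in oxamate-treated resistant cells, leaving out 1 library gave between 2 and 5 calls, against 7. Within that limit, the cytosolic calls in parental cells were 13, against 16, without both libraries rich in MALAT1. The resistant oxamate libraries, with MALAT1 between 577 and 742 CPM, stayed in that fit. The medians of the 2 sets moved by more than the replicate spread in 21 alternative fits and by less in 149. Same-numbered libraries of different groups were not treated as pairs: the correlation of their deviations ran from -0.10 to 0.41, 7 of 18 pairs were over 0.1, and 5 of 12 libraries correlated best with their own number. With a replicate block the calls were 16 and 11 (cytosolic and mitochondrial) for oxamate in parental cells, 15 and 7 in resistant cells, 18 and 13 with vehicle, 20 and 13 with oxamate, and 10 and 5 for the difference. The depth of the libraries leaves PARS2, the lowest member, well above the floor of 3 counts.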
